A study of Mus musculus with 6 samples.

Results

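Mllt3 and the 3 other mouse genes that encode a YEATS domain, Mllt1, Yeats2 and Yeats4, were followed across the 6 RNA-seq libraries of the study. They were chosen by name, as the 4 YEATS domain genes among the 55487 genes of the deposited table, and all 4 were found. The libraries were made from bone marrow cells of the mouse that had been selected for Kit, the stem cell factor receptor, and infected with a lentivirus that overexpresses MLLT3. In the WT group (n = 3) the virus supplied unaltered MLLT3, and in the DM group (n = 3) it supplied MLLT3 with the K63E and K67E substitutions. Cells of both groups were sorted and then grown in methylcellulose for 8 days. The medium held Flt3L at 10 ng/mL, thrombopoietin, erythropoietin, SCF, GM-CSF, IL-3, IL-6 and IL-11 at 20 ng/mL each, and 4-hydroxytamoxifen at 200 nM, which served to delete the cells' own Mllt3 gene. Both groups therefore carry the same targeted gene, and libraries without the virus or with the endogenous gene kept were not analysed here. The strain and age of the mice, the recombinase, the deleted part of the gene and the promoter of the virus are not given in the sources used here. The species of the MLLT3 sequence in the virus, mouse or human, is not given either. Nor is it given whether the 3 libraries of a group came from separate animals or cultures, so p-values measure the spread between these libraries, which may be technical.

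A YEATS domain is a protein fold that holds acetylated or crotonylated lysines of histones in an aromatic pocket. MLLT3 (AF9) and its close relative MLLT1 (ENL) carry the domain at the N-terminus and, at the C-terminus, a domain called AHD that binds AFF1 and AFF4 of the super elongation complex, DOT1L, CBX8 or BCOR. Both genes were first known as fusion partners of MLL in acute leukaemia, and MLLT3 is known as a regulator of haematopoietic stem cells and of erythroid and megakaryocytic fate. YEATS2 is a subunit of the ATAC acetyltransferase complex, and YEATS4 (GAS41) is a subunit of the TIP60 acetyltransferase and SRCAP remodelling complexes.

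The stretches of coding sequence around the 2 substituted codons are shown because they hold the residues that define the DM group. They were read from the principal transcripts of GENCODE M21 on GRCm38, each is 5′ to 3′ on the coding strand, and the capitals mark codons 63 and 67 of Mllt3 and the codons aligned with them.
Mllt3: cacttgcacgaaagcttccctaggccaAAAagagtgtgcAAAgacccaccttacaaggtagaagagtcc
Mllt1: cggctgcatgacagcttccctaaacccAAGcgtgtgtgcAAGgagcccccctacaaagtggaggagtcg
Yeats2: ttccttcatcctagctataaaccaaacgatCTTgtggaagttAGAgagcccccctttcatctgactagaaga
Yeats4: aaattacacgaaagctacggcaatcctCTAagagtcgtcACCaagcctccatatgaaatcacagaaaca

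In Mllt3 both marked codons are AAA, a lysine codon, so the residue numbers of the labels fit the mouse protein. Codon 63 lies in exon 2 (chr4:88031528-88031530, minus strand) and codon 67 in exon 3 (chr4:87880141-87880143). Mllt1 has AAG, also a lysine codon, at both places and at the same codon numbers (chr17:56926996-56926998 in exon 2 and chr17:56919975-56919977 in exon 3, minus strand). In Yeats2 the aligned codons are 215 (CTT, leucine) and 219 (AGA, arginine), and in Yeats4 they are 78 (CTA, leucine) and 82 (ACC, threonine), none of which encodes lysine. The Yeats2 stretch was aligned with a gap and holds 24 codons, against 23 in the other genes. After translation, Mllt1 shared the residue of Mllt3 at 115 of the first 140 codons (82.1%). The parts that could be aligned were shorter in the other genes, with 29 of 77 codons (37.7%) alike in Yeats2 and 27 of 74 (36.5%) in Yeats4. Both substituted lysines are thus shared by Mllt3 and Mllt1 and absent from the aligned positions of Yeats2 and Yeats4.

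The deposited values came from the regularized log (rlog) transform. They are on a log2 scale, normalized for library size and shrunken toward the mean of each gene, so that differences of low genes are understated. They hold no counts, and the sequencing depth is therefore unknown. Genes were tested where their mean was at least 3, which held for 18766 of them, and their median per library ran from 8.03 to 8.11. Kit was at 14.29 to 14.58 in WT and 14.30 to 14.90 in DM, whereas the 10 lymphoid markers had means between 2.00 and 4.08. Between the groups, 11 of the 12 neutrophil markers were called lower in DM, and 9 of 11 tested monocyte and macrophage markers were called higher (limma, adjusted p under 0.05). Over all tested genes 4.71% were called lower and 9.20% higher.

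Mllt3 (ENSMUSG00000028496.17; chr4:87769925-88033364, minus strand) was the member that differed between the groups. This mouse gene is the target of the deletion, and the virus supplies MLLT3 from a species that is not given. WT replicates 1, 2 and 3 had rlog values of 12.87, 12.60 and 12.44, and DM replicates 1, 2 and 3 had 12.44, 12.03 and 11.99. WT replicate 1 stood highest and DM replicates 2 and 3 lowest, while the groups overlapped by 0.0055 between WT replicate 3 and DM replicate 1. WT averaged 12.64 ± 0.216 (SD, n = 3) and DM 12.16 ± 0.249 (SD, n = 3), so the change was -0.48 (95% confidence interval -0.79 to -0.17, limma adjusted p = 0.0448). On the linear scale the DM level was 0.717 of the WT level (interval 0.58 to 0.886), or 28.3% lower. The call was lost in 6 of 13 alternative settings, and without WT replicate 1 the change was -0.36 (limma adjusted p = 0.152), against adjusted p values from 0.000949 to 0.161 over all 13. Leaving out WT replicate 2 (-0.50), DM replicate 2 (-0.42) or DM replicate 3 (-0.40) also ended the call, and the direction stayed lower in DM in all 13.

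The values sum over all transcripts assigned to the gene, which the table repeats on 8 lines with identical numbers, one for each annotated transcript. How far transcripts of the virus were assigned to the mouse gene is unknown, since the species of the viral sequence is not given. Any that were cannot be told apart from transcripts of the endogenous gene. Fewer expressing cells and less RNA per cell cannot be told apart either, for Mllt3 or for any other gene described here. No other annotated gene overlaps Mllt3. Its nearest neighbour, the antisense gene Gm12631, starts 136 bases from the promoter end and was between 1.38 and 1.47 in all 6 libraries, under the level required for testing.

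Mllt1 (ENSMUSG00000024212.9; chr17:56892611-56935415, minus strand), the member that shares both lysines and most of the domain, was at 10.25, 10.31 and 10.17 in WT and 10.26, 10.23 and 10.18 in DM. The DM values lay inside the range of the WT values. The change was -0.02 (95% confidence interval -0.17 to 0.13, limma adjusted p = 0.867), so the interval reached from 0.889 to 1.09 of the WT level.

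Yeats2 (ENSMUSG00000041215.16; chr16:20141063-20232573, plus strand), the reader subunit of ATAC, was at 10.49, 10.47 and 10.17 in WT and 10.40, 10.20 and 10.25 in DM. WT replicate 3 was the lowest of the 6 libraries, and the groups overlapped. The change was -0.10 (95% confidence interval -0.31 to 0.12, limma adjusted p = 0.53), which spans 0.805 to 1.09 of the WT level. The pseudogene Gm10241 lies within Yeats2 on the opposite strand and was at 4.28 to 4.36, far below it. Whether reads were counted by strand is not given in the sources used here.

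Yeats4 (ENSMUSG00000020171.8; chr10:117215221-117224507, minus strand), shared by TIP60 and SRCAP, was at 10.31, 10.33 and 10.24 in WT and 10.38, 10.39 and 10.34 in DM. All DM libraries were above all WT libraries, but by little: the change was 0.08 (95% confidence interval -0.07 to 0.22, limma adjusted p = 0.447), or 0.956 to 1.16 of the WT level. After quantile normalization the change was 0.00. Groups without overlap were found for 35.8% of all tested genes, so this order is not unusual in the table. Of the 4 genes, 1 was called, and 13.9% of all tested genes were (4.71% called lower, as Mllt3 was).

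**Figure D1:**
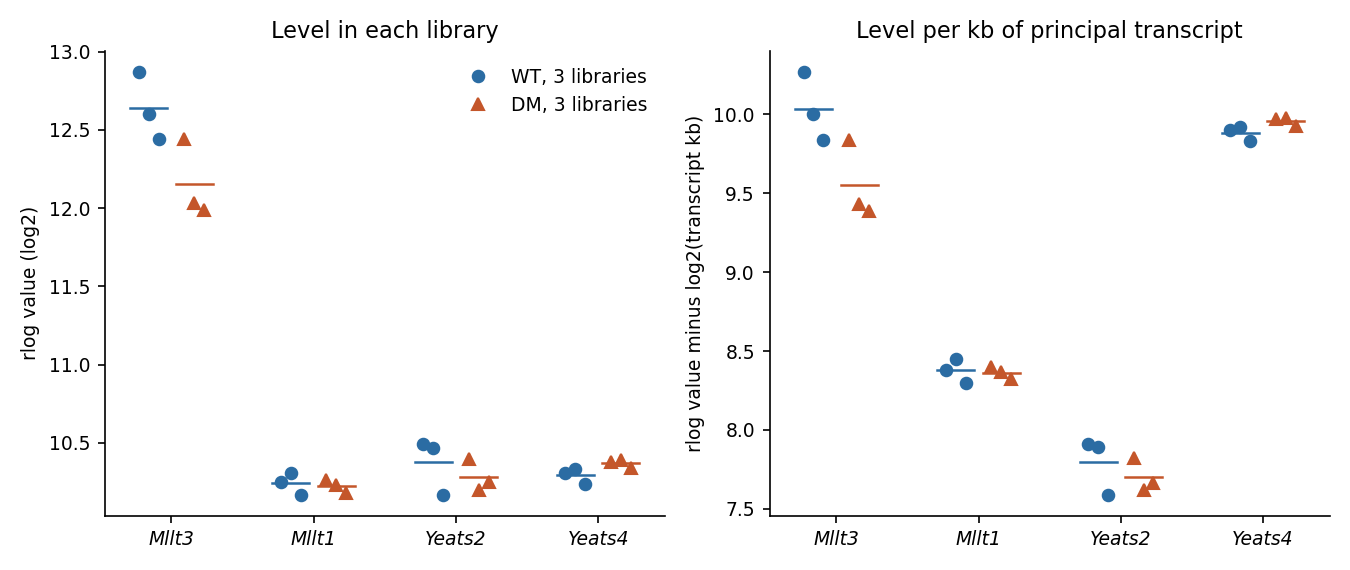
Level of each YEATS gene in the 6 libraries, as the rlog value (left) and as the rlog value minus the log2 of the length of the principal transcript in kb (right). Points are libraries (blue circles WT, orange triangles DM) and bars are group means. Mllt3 spreads over 0.87 log2 units, against 0.15 for Mllt1, 0.32 for Yeats2 and 0.16 for Yeats4.

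The 4 genes differed in how tightly they were held between replicates. The pooled SD within groups was 0.233 for Mllt3, 0.146 for Yeats2, 0.059 for Mllt1 and 0.0408 for Yeats4, on the log2 scale. Among the 2164 tested genes whose mean lay within 1.0 of that of Mllt3, 96.7% had a smaller SD, and the median was 0.0907. Of the same 2164 genes, 90.7% had a smaller absolute change between the groups than Mllt3, and 25.4% were called. For Yeats2 84.7% of 4472 genes of like level had a smaller SD, for Mllt1 16% of 4487, and for Yeats4 4.34% of 4473. Mllt3 was thus among the most variable genes of its level, and Yeats4 among the least. WT replicate 3 was the lowest WT library for all 4 genes, and DM replicate 3 was the lowest DM library for Mllt3, Mllt1 and Yeats4.

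Levels were compared between genes per kb, as the rlog value minus the log2 of the length of the principal transcript (6069 bases for Mllt3, 3636 for Mllt1, 5997 for Yeats2 and 1327 for Yeats4). In WT the order of these levels was Mllt3 (mean 10.03, range 9.84 to 10.27), Yeats4 (9.89, range 9.83 to 9.92), Mllt1 (8.38, range 8.30 to 8.45) and Yeats2 (7.80, range 7.59 to 7.91). Mllt3 and Yeats4 overlapped there, while Mllt1 lay below both and Yeats2 below Mllt1 in every library. In DM the level per kb of Yeats4 (mean 9.96, range 9.93 to 9.98) was above that of Mllt3 (9.56, range 9.39 to 9.84) in all 3 libraries. The place of Mllt3 depends on the length used. With the union of all annotated exons (12004 bases for Mllt3, 1415 for Yeats4) the WT means per kb were 9.05 for Mllt3 and 9.79 for Yeats4, which put Yeats4 first in both groups. The length of the transcript made from the virus is not given in the sources used here.

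Relative to the other YEATS genes of the same library, Mllt3 was lower in DM without overlap. Such a difference is free of any scaling shared by the genes of a library. Mllt3 minus Mllt1 was 2.62, 2.29 and 2.27 in WT against 2.18, 1.80 and 1.81 in DM, so this rlog difference changed by -0.46 between the group means. Mllt3 minus Yeats2 was 2.37, 2.13 and 2.26 in WT against 2.04, 1.83 and 1.75 in DM (-0.38). Mllt3 minus Yeats4 was 2.55, 2.27 and 2.20 in WT against 2.07, 1.64 and 1.65 in DM (-0.56). In each of the 3 differences every WT library was above every DM library, whereas the values of Mllt3 alone overlapped by 0.0055. Groups without overlap were found for 35.8% of all tested genes taken singly. No such share was computed for differences between genes. Against the mean of the other 3 genes the difference was 2.33 ± 0.16 (SD, n = 3) in WT and 1.86 ± 0.202 in DM. Each of these 4 comparisons, which share the values of Mllt3, had a two-sided exact permutation p of 0.1 (0.1 also after adjustment over the 4), the smallest that 3 against 3 libraries allows.

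**Figure D2:**
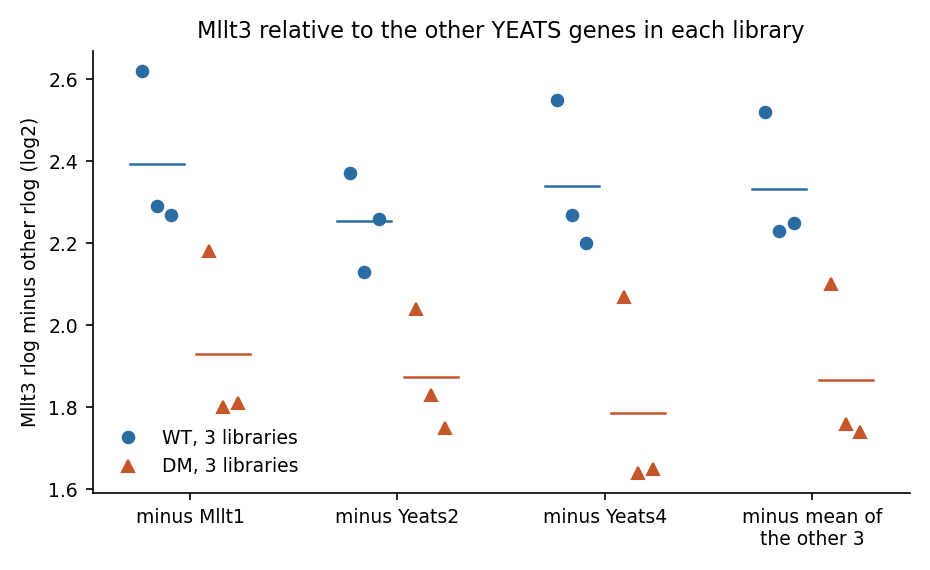
Mllt3 minus each other YEATS gene, and minus their mean, in each library (difference of rlog values, log2 scale). Points are libraries (blue circles WT, orange triangles DM) and bars are group means. The WT libraries lie between 2.13 and 2.62 and the DM libraries between 1.64 and 2.18, and within each comparison all WT points are above all DM points.

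The size of the change of Mllt3 depended on the libraries more than on the scaling, as the plot of changes under each setting shows. Over the single libraries left out it ran from -0.36 to -0.62. Quantile normalization gave -0.59 and centring on the median -0.51. The change of Yeats2 reached -0.20 without WT replicate 3 (adjusted p = 0.134 by limma), and no setting put Mllt1, Yeats2 or Yeats4 past the threshold.

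**Figure D3:**
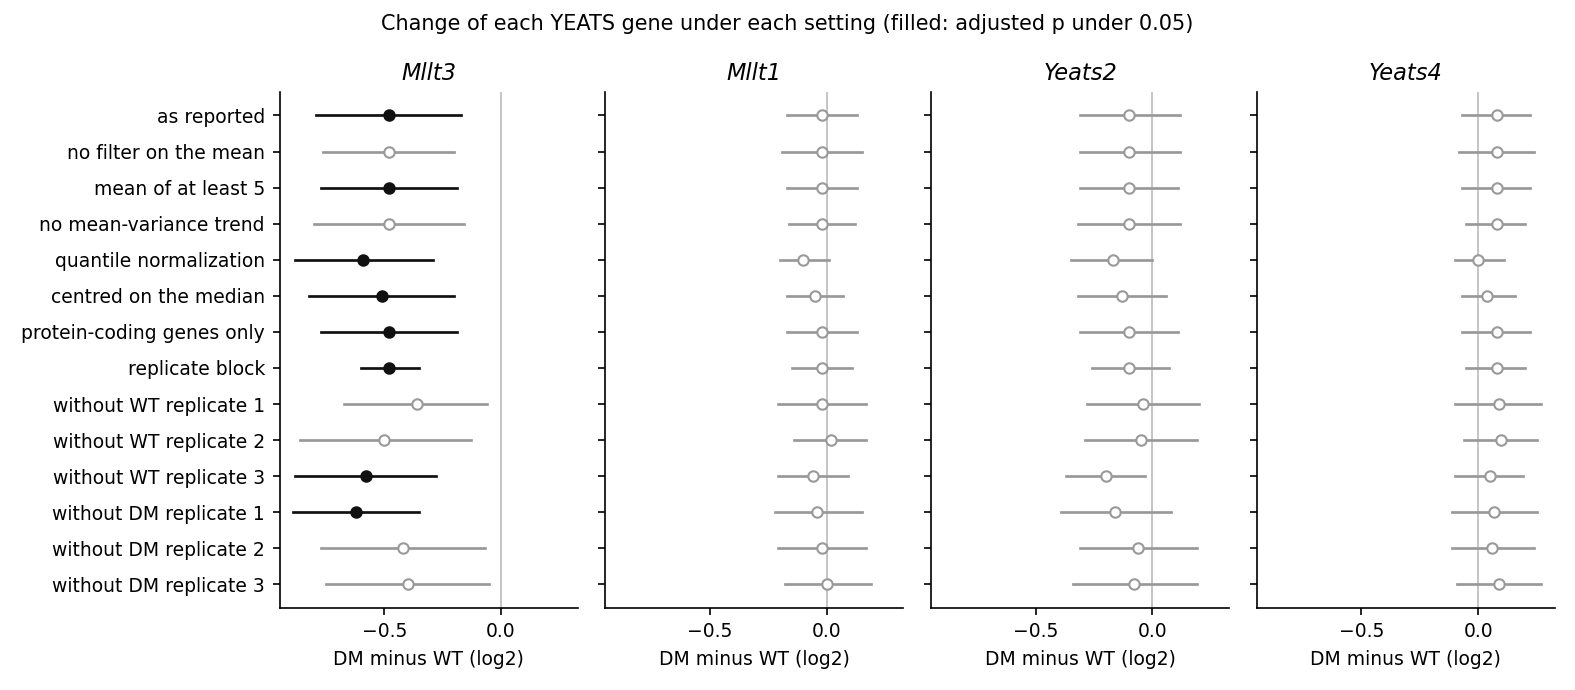
Change of each YEATS gene (DM minus WT, log2) with its 95% confidence interval as reported and under the 13 alternative settings. Black filled points had a limma adjusted p under 0.05 and grey open points did not. All points for Mllt3 are below 0, from -0.36 to -0.62, whereas those of Mllt1 and Yeats4 stay within 0.10 of 0.

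The genes whose pattern over the 6 libraries was most like that of Mllt3 were Sipa1l1, which encodes a GTPase-activating protein for Rap, Prim1, a subunit of DNA primase, and Erg, an ETS factor of haematopoietic stem cells. Pearson's r with Mllt3 was 0.991, 0.986 and 0.980, as a description over 6 libraries that share the group difference. Among the 2140 protein-coding genes compared, 30 had an r of at least 0.95. Sipa1l1 was at 11.26, 11.13 and 11.02 in WT and 10.94, 10.65 and 10.65 in DM, and was called lower (-0.39, limma adjusted p = 0.0266). Prim1 (-0.28, limma adjusted p = 0.0915) and Erg (-0.29, 0.0622) did not pass the threshold. The genes most like the other members were Arl14ep, Mgat5 and Med31 for Mllt1, Rnf126, Snrnp40 and Hadh for Yeats2, and Pccb, Ubqln2 and Ndufa12 for Yeats4, none of which was called.

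The complexes in which the 4 proteins work, other readers of acylated lysines, and the enzymes that add or remove acyl groups were described by 6 lists with 79 genes in all. Of the 78 tested, 5 were called higher and 1 lower in DM. This balance depended on the scaling and on the libraries used. Quantile normalization gave 3 higher and 7 lower. There were 0 of each without WT replicate 1, 1 of each without DM replicate 2, and 8 higher and 2 lower without WT replicate 2. The main count is 7.69% called, against 13.9% of all tested genes. Many of the listed genes had levels like those of the YEATS genes, where calls were more frequent. Within 1.0 of the mean of Mllt1 21.9% of genes were called, and within 1.0 of that of Mllt3 25.4%. The median change over the 78 genes was 0.06, against 0.01 over all tested genes, and no change reached 1 on the log2 scale.

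Among partners of MLLT3 and MLLT1, 3 of the 9 tested genes of the super elongation complex were called, all 3 higher (background 9.20% called higher), with a median of 0.18. Apart from Eaf2, the tested genes had levels like those of Mllt1 and Mllt3, where calls were more frequent. In either direction, 21.9% of genes within 1.0 of the mean of Mllt1 and 25.4% within 1.0 of that of Mllt3 were called. Ell2, an elongation factor of the complex, was at 10.91, 11.19 and 10.94 in WT and 11.31, 11.42 and 11.38 in DM (change 0.36, limma adjusted p = 0.0223). Eaf1, which binds ELL proteins, went from 12.28, 12.30 and 12.07 to 12.67, 12.47 and 12.49 (0.33, limma adjusted p = 0.0356), and Ell from 10.49, 10.68 and 10.51 to 10.77, 10.81 and 10.88 (0.26, limma adjusted p = 0.0427). The groups did not overlap for any of these 3 genes, as for 35.8% of all tested genes. The 3 were named because they were called, which favours such an order. Leaving out WT replicate 1, DM replicate 2 or DM replicate 3 ended all 3 calls, Eaf1 and Ell each lost theirs in 7 of 13 alternatives, and quantile normalization took Eaf1 to 0.21 (limma adjusted p = 0.0668) and Ell to 0.16 (0.0861). Of the core members, named after their values were seen, Aff1, Aff4 and the kinase Cdk9 each had a change of 0.18 and did not pass the test. Ell3 was below the level required for testing. Eaf1 overlaps Mettl6 (mean rlog value 10.21) on the opposite strand. Whether reads from the stretch they share were assigned by strand is unknown.

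Of the DOT1L complex and other proteins tied to the AHD or to MLL, 1 of 8 genes was called (background 13.9%). Mllt6 (AF17), a DOT1L partner, was at 11.26, 11.45 and 11.40 in WT against 11.74, 11.70 and 11.74 in DM. Its change of 0.35 (limma adjusted p = 0.0114) lost its call without WT replicate 1 (0.30, 0.0608). Dot1l, the H3K79 methyltransferase, had a change of 0.20 (limma adjusted p = 0.106), Bcor one of 0.18 (0.124) and Cbx8 one of 0.02 (0.913). Mllt10 was the only gene of this list with a lower mean in DM (-0.09, limma adjusted p = 0.423). Dot1l, Bcor, Cbx8 and Mllt10 were named after their values were seen, and none passed the test.

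None of the 12 genes of the ATAC complex, where YEATS2 works, was called by limma, and 3 had an unadjusted p under 0.05. Over all 18766 tested genes, 5415 had an unadjusted p under 0.05, so such values are common in the table. The largest difference was in Tada3, an adaptor subunit (0.18, unadjusted p = 0.0291, limma adjusted p = 0.125). Of the 20 genes of the TIP60 and SRCAP complexes, where YEATS4 works, 1 was called (background 13.9%). Ruvbl2, a AAA ATPase that these complexes share with others, was at 11.23, 11.15 and 10.86 in WT against 10.66, 10.64 and 10.53 in DM, and the change was -0.47 (limma adjusted p = 0.0123). This call was lost without WT replicate 1 (-0.40, limma adjusted p = 0.0516) and without DM replicate 3 (-0.43, 0.0526). Ruvbl2 overlaps Gys1 (mean rlog value 10.96) on the opposite strand.

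Of 13 other acyl-lysine readers, bromodomain and DPF proteins, none was called by limma and 2 had an unadjusted p under 0.05. As given above, 5415 of all 18766 tested genes had such a p. Cecr2 had the largest difference (-0.23, unadjusted p = 0.0128, limma adjusted p = 0.0742), but its mean of 4.25 was the lowest of the list. The other was Brd2, named after its values were seen, with means of 13.04 in WT and 13.25 in DM. Its change was 0.21 (unadjusted p = 0.0108, limma adjusted p = 0.0663). Of 16 histone acyl transferases, deacylases and related enzymes, 1 was called (background 13.9%). Sirt2, a deacylase of the sirtuin family, had 11.83, 12.01 and 11.77 in WT against 12.20, 12.31 and 12.21 in DM. The change was 0.37 (limma adjusted p = 0.0154). Without WT replicate 1 (0.35, limma adjusted p = 0.0687) and without DM replicate 2 (0.33, 0.074) this call was lost. Sirt2 overlaps Nfkbib (mean rlog value 10.33) on the opposite strand.

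**Figure D4:**
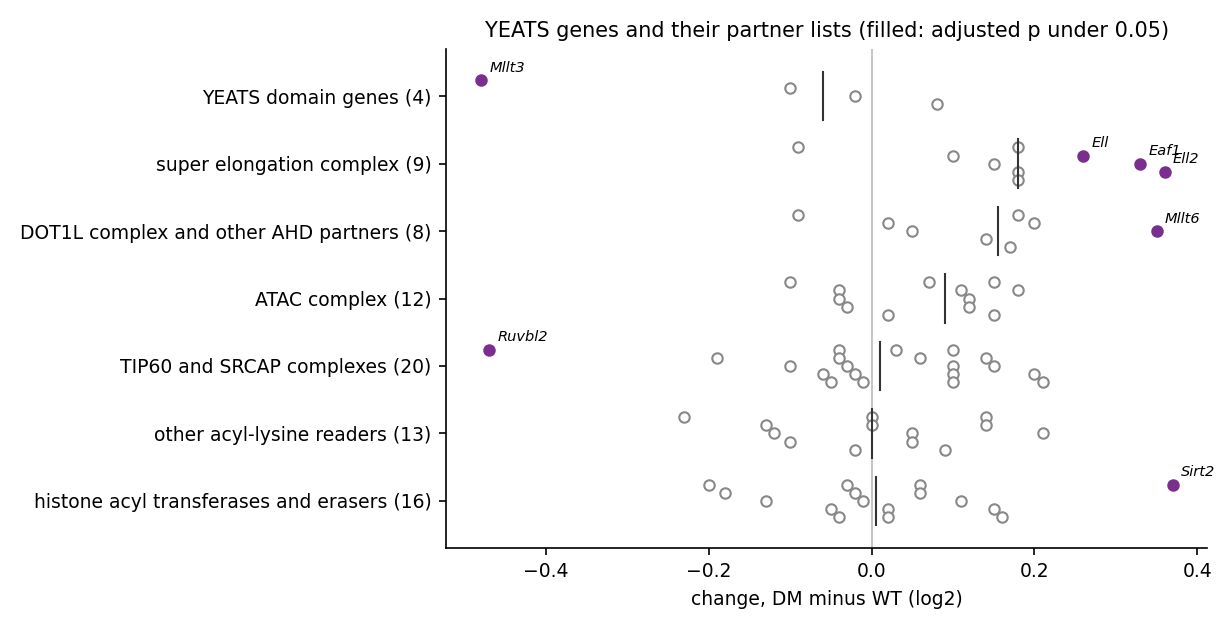
Change (DM minus WT, log2) of the YEATS genes and of the tested genes of each partner list, with the number tested in parentheses. Each point is a gene, filled and named where the limma adjusted p was under 0.05, and vertical bars are list medians. Mllt3 and Ruvbl2 lie lowest, at -0.48 and -0.47, and the other 5 named genes lie between 0.26 and 0.37.

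Markers of several cell types moved with the groups and are given beside these results. The log2 of the summed linear level of the 12 neutrophil markers was 18.53 to 18.99 in WT and 17.01 to 17.88 in DM, and that of the 12 monocyte and macrophage markers was 18.22 to 18.93 in WT and 19.25 to 19.62 in DM. For the lineages in which MLLT3 is best known, the summed level of the 8 megakaryocyte markers was 14.23 to 14.49 in WT and 14.51 to 14.89 in DM, with 2 called higher (background 9.20%). The 10 erythroid markers overlapped, at 10.69 to 11.23 in WT and 10.73 to 11.08 in DM. None of the 9 tested was called by limma (0 with an unadjusted p under 0.05). Gata1 was the highest of them, at 10.05 to 10.31 in WT and 10.16 to 10.53 in DM. Hba-a1 was at -1.97, the lowest value of the table, in all libraries. Other globin genes were higher, with Hbb-bt at 7.16 to 8.37 in WT and 6.95 to 7.59 in DM, and Hbb-bs at 5.87 to 6.54 and 5.69 to 6.07. The 8 progenitor markers also overlapped, at 16.04 to 16.26 and 16.04 to 16.41, with Flt3 and Myb called lower (background 4.71%). Flt3 was near the level required for testing, at 4.31 to 4.68 in WT and 4.23 to 4.25 in DM (limma adjusted p = 0.0494). The mast cell and basophil markers (18.85 to 19.22 in WT, 18.87 to 19.35 in DM) and the stromal and endothelial markers (12.69 to 12.84 and 12.68 to 12.89) overlapped as well. The stromal and endothelial sum came mainly from Pecam1, at 12.55 to 12.70 in WT and 12.51 to 12.77 in DM. The next highest gene of that list, Acta2, was at 7.76 to 8.13 and 8.15 to 8.47. Of the 10 mast cell and basophil markers Mitf was called higher (0.52) and Hdc lower (-0.62), and of the 9 tested stromal and endothelial markers Col1a1 (-0.37) and Pdgfrb (-0.36) were called lower. The lymphoid markers were at 6.32 to 6.54 in WT and 6.29 to 6.32 in DM, with none of the 5 tested called by limma (0 with an unadjusted p under 0.05). The part of these cell types in the change of Mllt3 or of its partners was not tested.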

How the data were processed

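The authors deposited 1 table of rlog values (log2 scale), a reading taken from its name and from values that are not whole. Per the submitters' processing notes, cutadapt 2.6, STAR 2.7.3, DESeq2 1.30.0 and the build mm10 were used. The counting tool, the annotation and the use of strand are not given in the sources used here. The 142699 lines were merged to 55487 genes, since repeated lines were identical, and 54435 versioned identifiers (98.1%) matched GENCODE M21 on GRCm38, the assembly that mm10 names.

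The test of DM against WT was limma 3.58.1 in R 4.3.3 (lmFit and trended eBayes), without covariates. It covered the 18766 genes whose mean was at least 3, with Benjamini-Hochberg adjustment over all of them and a threshold of 0.05. Confidence intervals come from this fit and are not adjusted. Exact permutation tests used scipy 1.17.1, and codons were aligned after translation with Biopython 1.88 (local, BLOSUM62). The limma test was tested on simulated data.

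The members and lists were chosen with earlier results of these data known. Named list genes were up to 4 called genes per list with the largest changes, or the 1 with the largest difference where none was called. Genes alike in pattern were the 3 with the highest Pearson's r per member, with a mean of at least 6 and an SD over the libraries of at least 0.2 (0.1 for Mllt1, Yeats2 and Yeats4). The alternatives were other filters, no trend, 2 scalings, protein-coding genes only, a replicate block, and each library left out.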

Additional observations from a re-analysis of the deposited data

How the results depend on the processing

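Mllt3 kept its direction in all 13 alternatives and lost its call in 6. These were no filter on the mean (-0.48, limma adjusted p = 0.0651), no mean-variance trend (-0.48, 0.0542), and 4 of the 6 fits with a library left out, with changes from -0.50 to -0.36. Over all 6 such fits the change ran from -0.62 to -0.36. Mllt1 changed sign without WT replicate 2 (0.02) and without DM replicate 3 (0.00). With a library left out it ran from -0.06 to 0.02, and after quantile normalization it was -0.10. Yeats2 and Yeats4 kept direction and side of the threshold in all 13. The 4 differences between Mllt3 and the other genes kept their direction in all 8 alternatives applied to them, in which no exact p could pass the threshold (at least 0.1, or 0.2 with a library left out). The number of genes called, 2611, ran from 1119 to 3475 with a library left out, at 1119 without DM replicate 2. It was 1185 when WT replicate 1 was left out and 1537 when DM replicate 3 was. Of them 66.1% were higher in DM, against 51.3% after quantile normalization.

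For the partner lists, leaving out a library gave 0 to 8 genes called higher and 0 to 2 lower over all lists. By list this was 0 to 4 for the super elongation complex, 0 to 2 for the DOT1L list, 0 to 2 for TIP60 and SRCAP, 0 to 1 for other readers and 0 to 2 for the enzymes. After quantile normalization 3 were called higher and 7 lower, with 1 for the super elongation complex, 2 for the DOT1L list, 2 for TIP60 and SRCAP, 2 for other readers and 3 for the enzymes. Centring on the median gave 3 called lower, and 3 called among the enzymes. Without the filter 3 were called higher, 1 of them in the super elongation complex. Without the trend 2 were called in TIP60 and SRCAP and 1 among other readers, and with a mean of at least 5 there were 2 in TIP60 and SRCAP. The cause of these shifts was not tested.

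With the replicate number as a block, Mllt3 had the same change with an adjusted p of 0.000949 by limma, 3742 genes were called, and 8 partner genes were called higher and 2 lower, with 3 in TIP60 and SRCAP, 1 among other readers and 2 among the enzymes. The numbers do not establish pairs, since the deviations of same-numbered libraries correlated at 0.491, 0.116 and 0.041, and WT replicate 3 correlated best with DM replicate 2 (0.124). Depth is unknown, so no counting error could be given.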
